A study of Mus musculus with 2 samples.

Results

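Id2 and Id3 (inhibitors of DNA binding) and the E protein genes Tcf3, Tcf4 and Tcf12 were followed through γδ T cells of the mouse thymus and liver. The members were the 5 genes with these symbols among the 27998 genes of the deposited table, and each symbol belonged to 1 Ensembl identifier. They were picked by symbol, as a set chosen with earlier results of these data known, and no measured value was used to find them. The study sequenced single-cell RNA from γδ T cells of both organs to catalogue their subsets and the order in which they develop. Each organ gave 1 library, from wild type, untreated C57BL/6J mice aged 8 weeks. Several mice were used, and their division between the libraries is not given in the sources used here. The thymic suspension alone was first depleted with anti-CD4 and anti-CD8 beads, and both libraries were then sorted on CD3e and the γδ T-cell receptor (TCR). Depletion and organ therefore cannot be told apart, and with 1 library per organ no difference was tested.

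Of the barcodes, 4351 of 4541 thymic and 8075 of 8658 hepatic ones were kept, with medians of 3271 and 2741 unique molecular identifiers (UMIs, 1 for each captured transcript molecule). The libraries shared 60 barcodes. Both were clustered together without the 5 genes, and each cluster was named, where possible, after the study's classes C1 to C8 from their markers ("C4-like"). Levels are given as CPM, a gene's UMIs among 1000000 UMIs of the cells of 1 class in 1 library. All 95% intervals, given in brackets, cover counting error only. The T-cell markers Cd3e, Cd3d and Cd3g were detected in all 16 combinations of class and organ with at least 20 cells. They were lowest in the C8-like hepatic cells, at 846 CPM summed against 2339 to 4978 CPM elsewhere. These C8-like cells also held 1256 CPM of 4 macrophage markers, Csf1r, Adgre1, Cd5l and Clec4f, against at most 5.06 CPM in any other class, so their markers do not bear out the sorted cell type for all of them. The cycling-like hepatic cells held 449.7 CPM of 4 B-cell markers, against 4.46 to 102 CPM in the other 15 combinations. Hemoglobin UMIs were present in 14.6% of thymic and 6.49% of hepatic cells.

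E proteins are basic helix-loop-helix transcription factors that bind E-box sequences in DNA as dimers. Tcf3 encodes E12 and E47, Tcf12 encodes HEB, and Tcf4 encodes a further E protein that is also prominent in plasmacytoid dendritic cells. Id proteins carry the helix-loop-helix but lack the basic region that contacts DNA, so that an E protein paired with an Id protein no longer binds. In developing T cells, Id3 is known to be induced after a TCR signal through the Egr factors, whereas Id2 is known as the Id protein of innate-like and effector lymphocytes such as natural killer cells.

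Because the comparison of Id2 with Id3 rests on telling their reads apart, the stretch in which their coding sequences are most alike is shown. It is the ungapped pair of 150 bases with the most identical positions, 104 of 150 (69.3%), and capitals mark the 46 bases that differ between the 2 genes. The Id2 stretch lies in exon 1 of Id2-201 at chr12:25095774-25095923 on the minus strand (GRCm38), coding bases 88 to 237 of 402. The Id3 stretch lies in exon 1 of Id3-201 at chr4:136143981-136144130 on the plus strand, coding bases 103 to 252 of 357.
Id2: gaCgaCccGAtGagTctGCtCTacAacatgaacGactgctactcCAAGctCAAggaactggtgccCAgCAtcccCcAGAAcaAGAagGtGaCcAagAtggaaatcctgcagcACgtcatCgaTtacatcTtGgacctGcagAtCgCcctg
Id3: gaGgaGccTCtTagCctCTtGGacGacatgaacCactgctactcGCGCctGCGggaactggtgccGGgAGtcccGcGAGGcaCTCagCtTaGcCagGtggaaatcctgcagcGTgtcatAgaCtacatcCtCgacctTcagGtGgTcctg
The longest run of bases shared by the 2 whole transcripts, of 1270 and 1278 bases, was 19 bases, and it was also 19 within their last 500 bases, where reads of a 3′ protocol fall. In the annotation Id2, Id3 and Tcf3 overlapped no other gene. Tcf4 overlapped 1 and Tcf12 overlapped 11 others, none of them protein coding, and 4 of the 11 lie on the opposite strand. In RefSeq's table for the same build, Id2 spans chromosome 12 from 25093799 to 25096092, Id3 chromosome 4 from 136143822 to 136145392, Tcf3 chromosome 10 from 80409541 to 80433976 and Tcf12 chromosome 9 from 71844252 to 72111893.

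In the thymus, Id2 was low in the 2 classes with C1 markers and higher in every other class. The C1 markers include Cd24a, which is carried by immature thymic γδ T cells and is lost as they mature. The largest class, named here Tnfsf11+ C1-like after its leading gene, had 913 CPM of Cd24a, and the second, Tox2+ C1-like, had 453 CPM. Cd24a stood at 528 CPM in cycling-like cells, 218 CPM in a cluster led by S1pr1 and Cd200, and 65.4 CPM and 51.2 CPM in C6-like and C3-like cells. The S1pr1+ Cd200+ cluster, with 1029 thymic and 53 hepatic cells, stayed without a class name because the hemoglobin genes scored higher in it than the C2 markers. It held 297 CPM of 4 hemoglobin genes in the thymus, against 6.25 to 56.7 CPM in the other 15 combinations. Leaving out the 113 of its 1029 thymic cells with a hemoglobin UMI moved none of its 5 member levels or its Id2 share beyond the reported intervals, with Id2 then at 236 CPM and Id3 at 198 CPM. C6 is the class of interleukin-17 producers. The C3-like cells took their name from Klf2, S1pr1, Ly6c2, Nt5e and Irf1. These naming genes differed between the organs, since all but Nt5e were higher in hepatic than in thymic C3-like cells, and Nt5e, which encodes CD73, stood at 66.6 CPM in the thymic and 24.3 CPM in the hepatic ones.

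Id2 stood at 51.7 CPM (45.2 to 58.9) in Tox2+ C1-like cells and 54.5 CPM (47.5 to 62.1) in Tnfsf11+ C1-like cells, and these intervals overlap. It was 123 CPM (113 to 134) in cycling-like cells and 241 CPM (225 to 259) in the S1pr1+ Cd200+ cluster. It reached 376 CPM (328 to 429) in C3-like cells and 457 CPM (399.5 to 521) in C6-like cells. Thus 4 levels were apart in counting error, from the C1-like pair to cycling-like cells, the S1pr1+ Cd200+ cluster and the pair of C3-like and C6-like cells, whose intervals overlap. When cells with as few as 500 genes were kept, 262 of the 543 thymic cycling-like cells fell into the cluster of most Tox2+ C1-like cells, and Id2 in that cluster was 90.0 CPM.

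Id3 followed another order in the same cells. It was lowest in the 2 classes in which Id2 was highest, 30.6 CPM (17.1 to 50.5) in C6-like and 37.6 CPM (23.5 to 56.9) in C3-like cells, and these rest on 15 and 22 UMIs. Tnfsf11+ C1-like cells had 65.8 CPM (58.1 to 74.1). Tox2+ C1-like and cycling-like cells had 143 CPM (132 to 154) and 149 CPM (137 to 161), which overlap, and the S1pr1+ Cd200+ cluster had the highest thymic level, 197 CPM (182 to 212). Id3 was therefore highest in the class where Id2 was intermediate, and low in the C3-like and C6-like classes that held the most Id2. The 2 C1-like classes, which overlapped for Id2, differed for Id3. At a clustering resolution of 0.4 these 2 classes formed 1 cluster, with 106 CPM of Id3.

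Set against the Tnfsf11+ C1-like cells, over genes with at least 50 UMIs in both groups together, the S1pr1+ Cd200+ cluster had 4.43 (3.81 to 5.16) times the Id2 level and 2.99 (2.59 to 3.46) times the Id3 level. Of the 5 members these 2 were at least 2-fold higher and none was at least 2-fold lower, where 5.41% of 7728 genes were that much higher, 4.48% that much lower and 9.89% either. At resolution 0.4 the Id3 difference was 0.89 on the log2 scale, against 1.58, which is under 2-fold. C3-like thymic cells had 6.89 (5.70 to 8.35) times the Id2 level of the same Tnfsf11+ C1-like cells, and C6-like thymic cells 8.40 (6.95 to 10.2) times. Their backgrounds were 26.1% and 28.8% of genes in either direction, and 5.5% and 8.49% higher. Id2 was the 1 member of 5 at least 2-fold higher in each. At least 2-fold lower were 2 of 5 members, Tcf4 and Tcf12, in C3-like cells, where 20.6% of genes were, and 4 of 5, Id3 and the 3 E protein genes, in C6-like cells, where 20.3% of genes were. Id3 was 1.75-fold (1.13 to 2.84) lower in C3-like and 2.15-fold (1.28 to 3.89) lower in C6-like cells. The 3 comparisons share the Tnfsf11+ C1-like cells.

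In the liver, every class held more Id2 than any thymic class. The 3 lowest were the S1pr1+ Cd200+ cluster with 593 CPM (480.2 to 725), C3-like cells with 599 CPM (573 to 625) and cycling-like cells with 662 CPM (584 to 747), which overlap. The thymic maximum, in C6-like cells, was 457 CPM (399.5 to 521), so its upper bound also overlaps the interval of the hepatic S1pr1+ Cd200+ cluster. C6-like and C7-like cells followed with 809 CPM (774 to 845) and 859 CPM (799 to 923), and these overlap. C7 is a class marked by the natural killer receptor genes Klra6 and Klra7 and by Gzma.

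The next 4 classes overlapped in Id2, and the first of them also overlapped the C7-like cells. They were the Ifit3+ cluster, led by interferon-induced genes, with 1028 CPM (891 to 1179), C5-like cells with 1039 CPM (1015 to 1062), the Crtam+ Tnfrsf9+ cluster with 1074 CPM (943 to 1218) and C8-like cells with 1108 CPM (1009 to 1215). C5 is a class marked by Ccl4, Tyrobp and Gzmb. C4-like cells, marked by Socs2, Cd28 and Gimap3 and the largest hepatic class, had the highest Id2 level of all, 1286 CPM (1263 to 1311), and no other interval reached it. Leaving mitochondrial and ribosomal protein UMIs out of the total gave 1809 CPM in the same cells.

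Id3 was low in most hepatic classes, and its lowest point value was in the C4-like cells, which had the most Id2. C4-like cells had 18.2 CPM (15.5 to 21.2) and C6-like cells 21.5 CPM (16.2 to 28.1), which overlap. C7-like, Ifit3+, C5-like, Crtam+ Tnfrsf9+ and cycling-like cells had 36.3, 40.5, 44.4, 49 and 56.2 CPM, and each overlapped its neighbour, as the C7-like cells did the C6-like cells. C3-like cells had 102 CPM (91.7 to 113) and the S1pr1+ Cd200+ cluster 149.9 CPM (96.1 to 223), which also overlap. C8-like cells stood apart with 393 CPM (335 to 458), the highest Id3 level measured in either organ.

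The C8-like cells are those with the macrophage markers given above. Without the 83 of 105 C8-like cells that held a UMI of a macrophage marker, Id2 was 844 CPM and Id3 544 CPM. The Id2 share of their Id UMIs was then 60.8%. These values rest on the few C8-like cells left and are given without intervals. The part of B-cell markers in the values of the cycling-like hepatic cells was not tested.

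**Figure D1:**
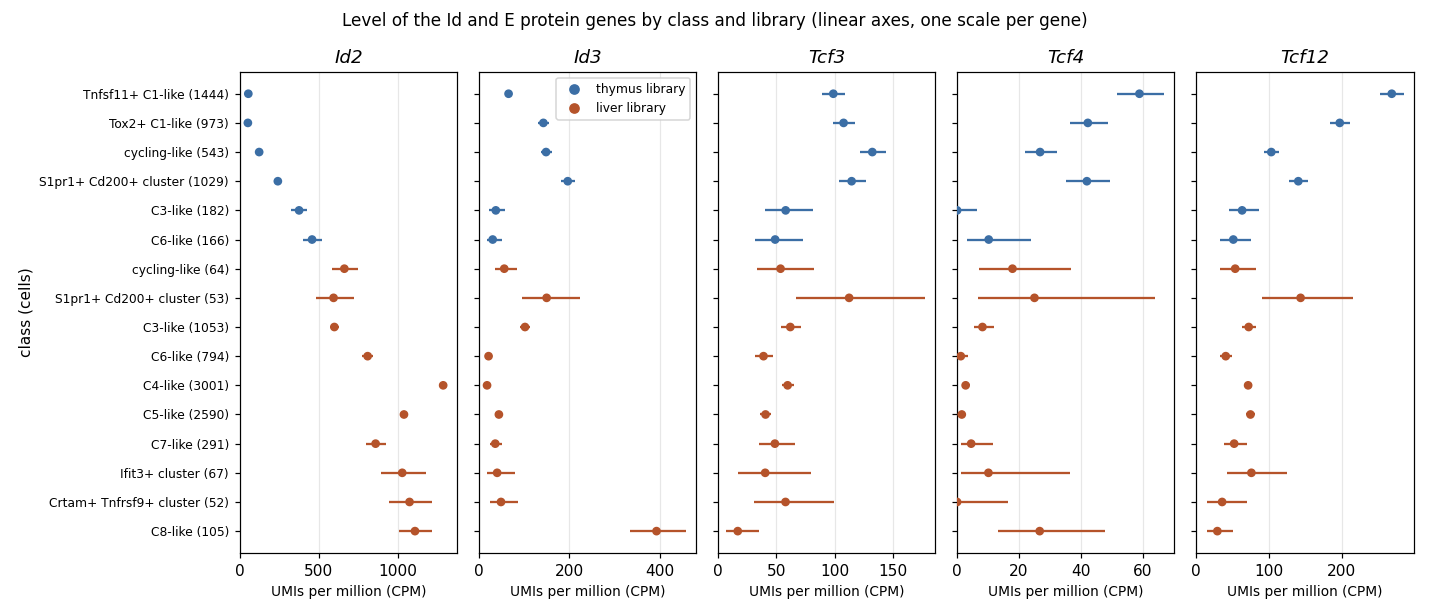
Levels of Id2, Id3, Tcf3, Tcf4 and Tcf12 in CPM (linear axes from 0, 1 panel a gene) by class, with thymic classes in blue and hepatic classes in orange-brown, and bars for exact Poisson 95% intervals. Id2 is between 51.7 and 457 CPM in thymic classes and between 593 and 1286 CPM in hepatic ones, whereas Tcf12 and Tcf4 are highest in the Tnfsf11+ C1-like thymic cells.

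The balance of the 2 Id genes does not depend on the total depth of a class, since both were counted in the same cells. UMIs of a 3′ protocol count 1 per transcript and are not scaled to length, but capture can differ between genes, so a share of 50% is not a point of equal protein. In the thymus Id2 made up 45.3% (40.8% to 49.8%) of Id2 and Id3 UMIs in Tnfsf11+ C1-like cells and 26.6% (23.7% to 29.7%) in Tox2+ C1-like cells. It was 45.3% (42.3% to 48.3%) in cycling-like cells and 55.1% (52.5% to 57.7%) in the S1pr1+ Cd200+ cluster. Id3 thus gave most Id UMIs in the 2 C1-like and the cycling-like classes, and Id2 gave most in the S1pr1+ Cd200+ cluster, by intervals that all exclude 50%. In Tnfsf11+ C1-like cells the margin was narrow. With no gene left out of the clustering, the Id2 share there was 49.4%.

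C3-like and C6-like thymic cells stood apart from these, with Id2 shares of 90.9% (86.6% to 94.2%) and 93.7% (89.9% to 96.4%). Their intervals overlap each other and lie above those of the other 4 thymic classes. All hepatic classes had Id2 shares above 50%. The 2 lowest were C8-like cells with 73.8% (70.2% to 77.3%) and the S1pr1+ Cd200+ cluster with 79.8% (71.5% to 86.6%). C3-like hepatic cells had 85.4% (84% to 86.8%), and cycling-like cells 92.2% (88.4% to 95%). The other 6 hepatic classes lay between 95.6% in the Crtam+ Tnfrsf9+ cluster and 98.6% in C4-like cells. The C4-like share, 98.6% (98.4% to 98.8%), lay above that of C6-like cells, 97.4% (96.6% to 98%), and of C5-like cells, 95.9% (95.4% to 96.3%).

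**Figure D2:**
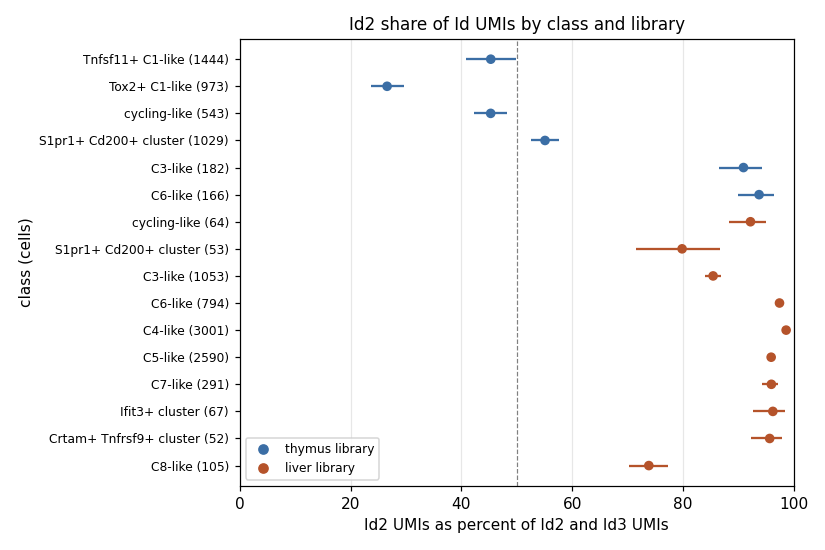
Id2 as a percentage of Id2 and Id3 UMIs (0 to 100%) by class, thymic classes in blue and hepatic classes in orange-brown, with exact binomial 95% intervals and a dashed line at 50%. Only Tnfsf11+ C1-like, Tox2+ C1-like and cycling-like thymic cells lie below the line, at 45.3%, 26.6% and 45.3%.

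Single cells were then sorted by the Id UMIs they held, after each was thinned at random to 1500 UMIs. In Tnfsf11+ C1-like cells 6.59% (5.37% to 8.00%) held Id2 only, 7.01% (5.74% to 8.45%) Id3 only, 0.763% (0.382% to 1.36%) both and 85.6% (83.7% to 87.4%) neither. The Id2-only and Id3-only intervals of these cells overlap. Tox2+ C1-like cells held Id3 only in 14.3% (12.1% to 16.6%) and Id2 only in 5.55% (4.20% to 7.18%). A cell with no UMI may still carry the transcript, and at this depth most C1-like cells gave no Id UMI at all.

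Cells with both genes were most frequent in the thymic S1pr1+ Cd200+ cluster and cycling-like class among the 4 thymic classes with over 500 cells. In the S1pr1+ Cd200+ cluster 19.8% held Id2 only, 13.1% Id3 only and 4.98% (3.73% to 6.49%) both. Cycling-like thymic cells held both in 3.87% (2.41% to 5.85%). In thymic C3-like and C6-like cells, Id2 only was found in 27.5% and 31.9%, and Id3 only in 1.65% and 2.41%.

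In the liver Id2 alone was the most frequent state in every class except the C3-like, C8-like and S1pr1+ Cd200+ ones, in which cells with neither gene were more frequent. C4-like cells held Id2 only in 73.7% (72.1% to 75.3%), both in 1.80% (1.35% to 2.34%) and Id3 only in 0.666% (0.408% to 1.03%). Among C4-like cells with any Id UMI, 96.8% (96% to 97.5%) held Id2 alone. C5-like cells held both in 4.36% and C3-like hepatic cells in 6.47%. C3-like hepatic cells held Id3 only in 7.14% (5.65% to 8.86%), and C8-like cells held both in 19% (12% to 27.9%).

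Whether a cell with Id2 was less likely to hold Id3 was read within each class. In Tox2+ C1-like cells an Id3 UMI was found in 15.6% (7.76% to 26.9%) of cells with and 15.3% (13% to 17.8%) of cells without an Id2 UMI. In the thymic S1pr1+ Cd200+ cluster it was found in 20.1% (15.3% to 25.5%) of cells with and 17.4% (14.8% to 20.2%) of cells without an Id2 UMI, in C3-like hepatic cells in 13.8% (10.9% to 17.2%) of cells with and 13.4% (10.7% to 16.5%) of cells without an Id2 UMI, and in C5-like cells in 6.34% (5.25% to 7.57%) of cells with and 5.82% (4.31% to 7.67%) of cells without an Id2 UMI. The intervals of cells with and without Id2 overlapped in each of these classes, so at this depth no separation of Id2 and Id3 into different cells of 1 class was detectable in them. In C4-like cells, with the fewest Id3 UMIs, the values were 2.38% (1.79% to 3.10%) of cells with and 2.72% (1.67% to 4.18%) of cells without an Id2 UMI.

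Droplet libraries hold free RNA that gives UMIs in cells without the transcript, and none of the classes is known to lack Id2 or Id3. The lowest share in the same library is therefore given as an upper limit to what free RNA adds. For Id2 it was 6.58% of thymic Tox2+ C1-like cells (median depth 4373 UMIs before thinning) and 46.7% of hepatic C3-like cells (2982 UMIs). The Id2 share of 7.36% in Tnfsf11+ C1-like cells overlapped the first. That of the hepatic cycling-like, C8-like, S1pr1+ Cd200+, Ifit3+ and Crtam+ Tnfrsf9+ cells, 48.1% to 63.5%, overlapped the second. For Id3 the lowest was 4.40% of thymic C3-like cells (3056 UMIs), and thymic C6-like cells with 4.82% and Tnfsf11+ C1-like cells with 7.77% overlapped it. In the liver it was 2.47% of C4-like cells (2719 UMIs), which C6-like, C7-like, Ifit3+ and cycling-like cells overlapped, with 3.40%, 4.14%, 4.48% and 4.69%. Id3 in these classes, and Id2 in the 2 C1-like classes, was not told apart from free RNA. By the same limit, neither was Id2 in the hepatic C3-like, cycling-like, C8-like, S1pr1+ Cd200+, Ifit3+ and Crtam+ Tnfrsf9+ cells. The class that sets a limit meets it by definition, so the limit cannot decide whether its own UMIs are free RNA. Apart from the C3-like cells, these hepatic classes held 52 to 105 cells, and their intervals are wide. Ratios with any of these are as counted, with no free RNA subtracted. Without thinning, 89% of C4-like and 11.7% of Tnfsf11+ C1-like cells held an Id2 UMI.

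**Figure D3:**
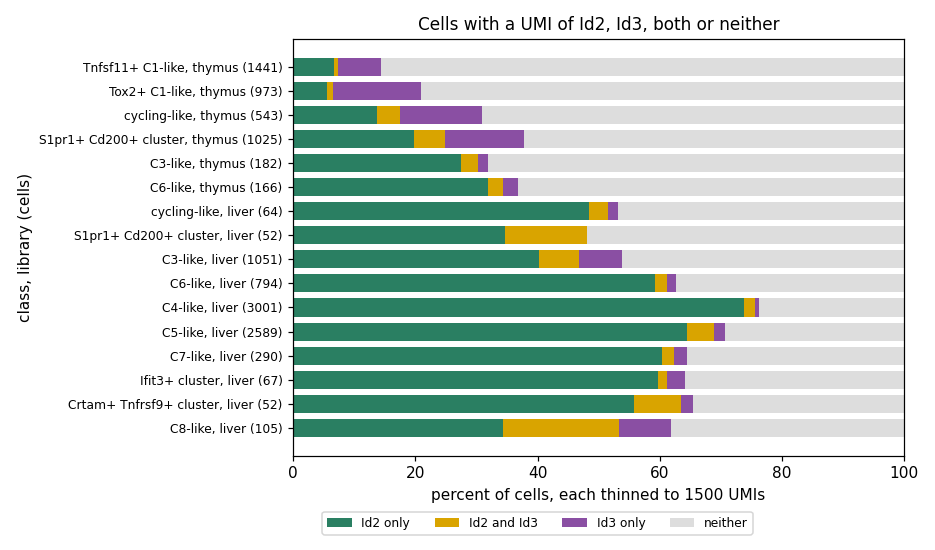
Percentage of cells (stacked to 100%) with an Id2 UMI only, both, an Id3 UMI only or neither, by class, after thinning every cell to 1500 UMIs. Cells with Id2 only make up 73.7% of C4-like hepatic cells and 6.59% of Tnfsf11+ C1-like thymic cells.

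Tcf12 and Tcf4, and the sum of the 3 E protein genes, were highest in Tnfsf11+ C1-like thymic cells, where Id2 was low, whereas Tcf3 was highest in cycling-like thymic cells. Summed over Tcf3, Tcf4 and Tcf12, the level was 427 CPM (407 to 447) in Tnfsf11+ C1-like cells, 347 CPM (330.3 to 365) in Tox2+ C1-like cells, 297 CPM (279 to 316) in the S1pr1+ Cd200+ cluster and 262 CPM (247 to 279) in cycling-like cells. C3-like and C6-like thymic cells had 121 CPM (94.7 to 153) and 110.3 CPM (82.8 to 144), which overlap. Hepatic classes held between 72.8 CPM in C8-like cells and 142 CPM in C3-like cells, apart from the S1pr1+ Cd200+ cluster with 281 CPM (205 to 376). That cluster had 297 CPM (279 to 316) in the thymus, so its summed E protein level overlapped between the organs.

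Tcf12 gave the largest part of this pattern. It was 269 CPM (253 to 286) in Tnfsf11+ C1-like and 198 CPM (185 to 211) in Tox2+ C1-like cells, and 141 CPM (128 to 154) and 103 CPM (93.7 to 114) in the S1pr1+ Cd200+ and cycling-like thymic classes. C3-like thymic cells had 4.26-fold (3.07 to 6.09) less Tcf12 than Tnfsf11+ C1-like cells, and C6-like thymic cells 5.27-fold (3.55 to 8.18) less. Drops of at least 2-fold were found for 20.6% and 20.3% of assessed genes in these comparisons. The share of genes with drops as large as those of Tcf12 was not counted. In the hepatic C3-like, C4-like and C5-like classes Tcf12 differed little, at 72.3, 71.5 and 74.7 CPM with overlapping intervals, and it was lower in C6-like cells at 40.6 CPM (33.1 to 49.3). Of the 11 non-coding genes that overlap Tcf12, 7 lie on its own strand and 4 on the opposite one. Strand-aware counting is not stated in the sources used here. Whether UMIs of these genes are among those counted for Tcf12 was not tested.

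Tcf3 varied least among the 3 E protein genes in the thymus. Its highest value, in cycling-like cells, was 132 CPM (121 to 144), which overlaps the S1pr1+ Cd200+ cluster, and it lay between 98.9 and 115 CPM in the C1-like and S1pr1+ Cd200+ classes, whose intervals overlap. It was 58 CPM (40.2 to 81.1) in C3-like and 49 CPM (31.4 to 72.9) in C6-like thymic cells. In the liver it was highest in the S1pr1+ Cd200+ cluster, 112 CPM (66.6 to 178), and lowest in C8-like cells, 17 CPM (6.83 to 35). Tcf3 made up 23.2% of E protein UMIs in Tnfsf11+ C1-like cells and 50.4% in cycling-like thymic cells, and Tcf12 63% and 39.4%.

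Tcf4 was the scarcest E protein gene in every class but one. It stood at 58.9 CPM (51.7 to 66.8) in Tnfsf11+ C1-like, 42.2 CPM (36.4 to 48.7) in Tox2+ C1-like, 41.9 CPM (35.2 to 49.5) in S1pr1+ Cd200+ and 26.8 CPM (22 to 32.3) in cycling-like thymic cells. No Tcf4 UMI was counted in C3-like thymic cells, and the limit that a count of 0 allows, 3 UMIs, makes Tcf4 at least 11.5-fold lower there than in Tnfsf11+ C1-like cells. In C4-like, C5-like and C6-like hepatic cells it was 2.76, 1.52 and 1.20 CPM, from 24, 11 and 3 UMIs. The exception was the C8-like class, in which Tcf4 stood at 26.7 CPM (13.3 to 47.7) beside Tcf3 at 17 CPM (6.83 to 35), with overlapping intervals.

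Dividing the E protein UMIs by the Id UMIs of the same cells gave the highest quotients in C1-like thymic cells and low ones in all hepatic classes. Tnfsf11+ C1-like cells had 3.55 (3.21 to 3.93) E protein UMIs per Id UMI and Tox2+ C1-like cells 1.79 (1.64 to 1.95). Cycling-like cells had 0.966 (0.888 to 1.05), an interval that holds 1, and the S1pr1+ Cd200+ cluster 0.678 (0.625 to 0.736). C3-like and C6-like thymic cells had 0.293 (0.222 to 0.384) and 0.226 (0.165 to 0.305), which overlap. Only the 2 C1-like classes thus held more E protein than Id UMIs with an interval above 1. With cells of at least 500 genes kept, the quotient of thymic cycling-like cells was 1.46.

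In the liver the quotient was highest in the S1pr1+ Cd200+ cluster, 0.378 (0.262 to 0.537), and in C3-like cells, 0.203 (0.184 to 0.224). C4-like, C5-like, C6-like and C7-like cells had 0.103, 0.108, 0.0974 and 0.118, with overlapping intervals. C8-like cells had 0.0485 (0.0324 to 0.0699), the lowest point value, and it overlapped that of the Crtam+ Tnfrsf9+ cluster, 0.0833 (0.0507 to 0.130). Between C4-like and C3-like cells the quotient differed although the summed E protein intervals overlapped, at 134 CPM in C4-like and 142 CPM in C3-like cells.

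**Figure D4:**
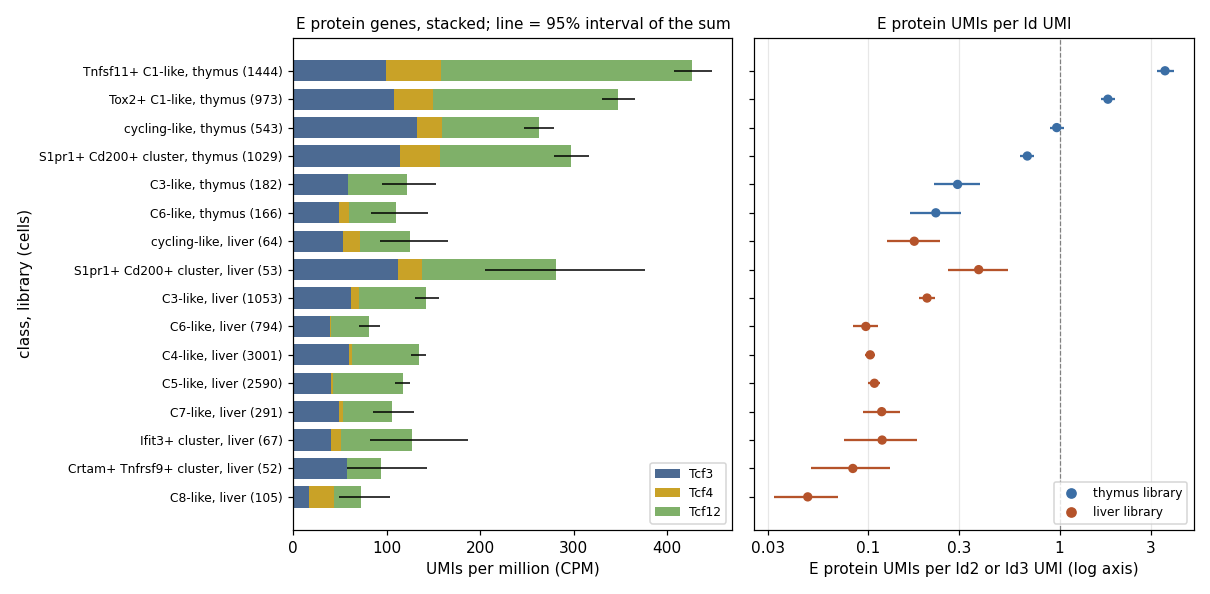
Left, stacked CPM of Tcf3, Tcf4 and Tcf12 by class with the 95% interval of the sum. Right, E protein UMIs per Id UMI on a log axis with exact 95% intervals and a dashed line at 1. The summed level is 427 CPM and the quotient 3.55 in Tnfsf11+ C1-like thymic cells, against 134 CPM and 0.103 in C4-like hepatic cells.

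Over all kept cells, Id2 was higher in the liver and the other 4 members were lower. Id2 was 1026 CPM in hepatic and 133 CPM in thymic cells, a ratio of 7.71 (7.38 to 8.05). Id3 was 2.73-fold (2.54 to 2.94), Tcf3 2.13-fold (1.98 to 2.29), Tcf12 2.52-fold (2.38 to 2.68) and Tcf4 10.3-fold (8.27 to 12.9) lower in the liver. All 5 members thus differed by at least 2-fold, where 29.2% of 10758 assessed genes did, 12.3% higher and 17% lower. Such sums mix the classes, and a different share of each class and a different level within a class cannot be told apart in them. There were 1.22 (1.17 to 1.27) E protein UMIs per Id UMI in thymic cells, against 0.115 (0.110 to 0.119) in hepatic ones.

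Within the C3-like and C6-like classes, found in both organs, the Id2 ratio was smaller than over all kept cells. Id3 in C3-like cells was higher in the liver, whereas over all kept cells it was lower there. C3-like cells had 1.59 (1.39 to 1.84) times as much Id2 and 2.72 (1.77 to 4.39) times as much Id3 in the liver as in the thymus. Id3 was the only 1 of 4 assessed members that passed 2-fold, where 9.15% of 5583 genes did, 5.14% higher and 4.01% lower. Its thymic level rests on 22 UMIs and was not told apart from free RNA, by a limit that the thymic C3-like cells themselves set. Tcf3 and Tcf12 had ratios of 1.07 (0.741 to 1.58) and 1.14 (0.807 to 1.66), intervals that hold 1. Tcf4 had 28 hepatic and 0 thymic UMIs, which makes it at least 1.60-fold higher in the liver against the limit of 3 UMIs, and the 95% interval of the ratio begins at 1.22. The Id2 share of Id UMIs among C3-like cells was 90.9% for thymic and 85.4% for hepatic ones, with overlapping intervals, and both Id genes were higher in the liver. The thymic and hepatic C3-like cells were unlike in other genes. After thinning to 1500 UMIs, Zbtb16 was held by 9.89% of the thymic and 1.62% of the hepatic ones, and Il4 by 4.95% and 0.190%. Whether they are the same kind of cell was not tested, so organ and kind of cell cannot be told apart in these ratios.

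C6-like cells had 1.77 (1.54 to 2.04) times as much Id2 in the liver. None of the 4 assessed members passed 2-fold, where 8.52% of 5141 genes did, 6.36% higher and 2.16% lower. Id3, Tcf3 and Tcf12 had hepatic-to-thymic ratios of 0.702 (0.391 to 1.34), 0.797 (0.506 to 1.30) and 0.796 (0.510 to 1.29), all holding 1. In the S1pr1+ Cd200+ cluster, 53 hepatic cells had 593 CPM (480.2 to 725) of Id2 against 241 CPM (225 to 259) in the thymus, while its Id3 intervals overlapped. Id2 was thus higher in the liver in each of these 3 classes, and in cycling-like cells too, at 662 against 123 CPM. These levels are as counted, and in the hepatic C3-like, S1pr1+ Cd200+ and cycling-like cells Id2 was not told apart from free RNA. The hepatic C3-like cells themselves set the limit used for this.

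Among hepatic classes, C4-like cells had 2.15 (2.05 to 2.25) times the Id2 and 5.62-fold (4.64 to 6.82) less Id3 than C3-like cells. Tcf4 was 2.97-fold (1.66 to 5.35) lower, and Tcf3 and Tcf12 had ratios of 0.963 (0.819 to 1.14) and 0.989 (0.852 to 1.15). Of the 5 members, 1 was at least 2-fold higher and 2 lower, against 6.97% and 2.36% of 8352 assessed genes and 9.33% in either direction. With mitochondrial and ribosomal protein UMIs left out of the total, the Id2 difference was 0.88 on the log2 scale against 1.10, which is under 2-fold. C6-like cells also had 4.74-fold (3.55 to 6.44) less Id3 than C3-like cells, and Id2 was 1.35 (1.27 to 1.44) times as high. Id3 was the 1 of 4 assessed members past 2-fold there, where 12.6% of 6794 genes were, 8.88% higher and 3.69% lower. Id3 in the C4-like and C6-like cells, and Id2 in the C3-like hepatic cells, was not told apart from free RNA, so the Id3 and Id2 ratios of both comparisons are as counted. The limits used for this were set by the C4-like cells for Id3 and the C3-like cells for Id2. Both comparisons share the C3-like hepatic cells.

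C5-like and C4-like cells, the 2 large hepatic classes of interferon-γ producers in the study, differed in their Id genes in opposite directions. C5-like cells had 2.44 (2.01 to 2.97) times the Id3 and 0.807 (0.784 to 0.831) times the Id2 of C4-like cells. Id3 was the 1 of 4 assessed members past 2-fold, where 5.2% of 8811 genes were, 2.44% higher and 2.76% lower. Tcf3 was lower in C5-like cells, with a ratio of 0.683 (0.590 to 0.789), and Tcf12 had 1.05 (0.930 to 1.17). This comparison shares the C4-like cells with that of C4-like and C3-like cells.

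Cells of 1 class were also divided by whether they held a UMI of a gene with a known link to the Id proteins. These cells come from 1 library, and cells with the UMI were often deeper, so the ratios are descriptions. Zbtb16 encodes PLZF, the transcription factor of innate-like T cells, including γδ natural killer T cells. After thinning to 1500 UMIs, its lowest shares in classes of over 500 cells were 0.486% (0.196% to 0.998%) of thymic Tnfsf11+ C1-like and 1.00% (0.657% to 1.47%) of hepatic C5-like cells. The shares in the thymic S1pr1+ Cd200+ cluster, 0.780% (0.338% to 1.53%), and in C3-like hepatic cells, 1.62% (0.945% to 2.58%), overlapped these and are read as background, so no ratio is given for these classes or for C5-like cells. Ratios are given for cycling-like thymic cells with 2.95%, C3-like thymic cells with 9.89%, C4-like cells with 3.87% and C6-like hepatic cells with 9.95%. In the cycling-like thymic class, 50 cells with Zbtb16 had 196 CPM of Id2 and 493 without it 115 CPM, a ratio of 1.70 (1.33 to 2.16), with median depths of 8051 and 6994 UMIs. Their Id3 ratio was 1.75 (1.40 to 2.17) and their Tcf12 ratio 0.630 (0.413 to 0.925). In C4-like cells the Id2 ratio was 1.14 (1.07 to 1.22). C3-like thymic and C6-like hepatic cells had Id2 ratios of 0.937 (0.676 to 1.28) and 1.11 (0.996 to 1.23), which hold 1. Over all 7 combinations of class and organ divided by Zbtb16, the Id2 interval lay above 1 in 4 and below 1 in 0. These 7 include the classes in which Zbtb16 was read as background, so a higher Id2 was not confined to the classes with ratios given.

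Il4, the cytokine gene of natural killer T-like γδ cells, was detected in 310 C4-like cells. After thinning it was found in 5.90% (5.08% to 6.80%) of all C4-like cells, against 0.0772% (0.00936% to 0.279%) of C5-like cells. It was not particular to the C4-like cells, since thymic C3-like cells held it in 4.95% (2.29% to 9.18%), which overlaps. The 310 C4-like cells with Il4 had 1479 CPM of Id2 against 1262 CPM in the other C4-like cells, a ratio of 1.17 (1.11 to 1.24). Their Tcf12 and Id3 ratios were 0.732 (0.540 to 0.973) and 0.718 (0.373 to 1.27). Mki67 or Top2a, genes of dividing cells, were found in 20.8% (17.5% to 24.5%) of thymic cycling-like cells, against 0.763% (0.382% to 1.36%) of Tnfsf11+ C1-like cells. Cycling-like thymic cells with them had 0.682 (0.569 to 0.816) times the Id2 of those without. Over the 10 combinations of class and organ divided by Mki67 or Top2a, the Id2 interval lay above 1 in 2 and below 1 in 1. Cd24a, the marker of immaturity, was found in 48.3% of cycling-like thymic cells and 22.6% of the thymic S1pr1+ Cd200+ cluster, against 7.83% of thymic C6-like cells. Cells with it had Id2 ratios of 0.663 (0.521 to 0.854) and 0.829 (0.716 to 0.958) in these 2 classes, while the ratios of the Tnfsf11+ and Tox2+ C1-like cells, 0.957 (0.700 to 1.33) and 1.07 (0.786 to 1.48), hold 1.

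Cells with a UMI of Egr1, Egr2, Egr3 or Nr4a1, early genes of the TCR signal, did not hold more Id3 in every class. No class lacked these UMIs, and the lowest shares after thinning were 17.6% (12.3% to 23.9%) of C3-like thymic and 16.4% (8.49% to 27.5%) of Ifit3+ hepatic cells. The classes named next had shares above these, from 33.1% in cycling-like thymic to 63% in Tnfsf11+ C1-like cells. In Tnfsf11+ and Tox2+ C1-like cells, the Id3 ratios were 0.763 (0.574 to 1.02) and 0.812 (0.671 to 0.987). In the thymic S1pr1+ Cd200+ cluster the ratio was 1.34 (1.13 to 1.59) and in C3-like hepatic cells 1.51 (1.20 to 1.91). The interval thus lay below 1 in Tox2+ C1-like cells and above 1 in the last 2. Cycling-like thymic cells had an Id3 ratio of 0.880 (0.723 to 1.08) and an Id2 ratio of 0.621 (0.510 to 0.760). Not all classes are named here. Over the 14 combinations of class and organ divided in this way, the Id3 interval lay above 1 in 4 and below 1 in 2. The Id2 interval lay above 1 in 2 and below 1 in 6.

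The other genes of the pathway were read from lists chosen with earlier results of these data known. Over all kept cells, hepatic against thymic, the median log2 ratio of all assessed genes was -0.21, with 12.3% at least 2-fold higher and 17% lower. Of the other Id genes, Id1 had 86 hepatic and 79 thymic UMIs and did not pass 2-fold, with a log2 ratio of -0.38, and Id4 had 1 UMI in all. Id2 and Id3 were therefore the Id genes with UMIs in number in these cells.

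Of 10 other helix-loop-helix and cofactor genes, 8 were assessed. Lyl1, Lmo2, Bhlhe40 and Myc were at least 2-fold higher in the liver, where 12.3% of all genes were, and none was lower, with a median log2 ratio of 1.11. Bhlhe40, a helix-loop-helix repressor, was 18.8 times as high, and Lyl1, which pairs with E proteins, 31.2 times from 5 thymic UMIs. Of 6 effector regulators known to act beside Id2, all were assessed and 3 were higher, Tbx21, Prdm1 and Bhlhe40, with a median of 2.44. Tbx21, which encodes T-bet, was 58.6 times as high in the liver.

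All 4 progenitor regulators, Tcf7, Lef1, Bcl11b and Satb1, were at least 2-fold lower in the liver, where 17% of all genes were, with a median log2 ratio of -1.84. Tcf7, which encodes TCF1 and despite its symbol is no E protein gene, was 7.33-fold lower. Of 12 genes known to be activated by E proteins in T-cell precursors, 8 were assessed, 2 were higher, Cxcr4 and Socs3, and 3 were lower, Notch3, Dntt and Cdk6, with a median of -0.47. Of the other 3 assessed, Notch1, Gfi1 and Foxo1 had ratios of 0.988, 1.10 and 0.529. Dntt, which encodes the terminal transferase of V(D)J joining, was 131-fold lower. Of 6 TCR signal genes 5 were assessed, Cd69 was higher and Egr2 lower, with a median of -0.71.

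In C3-like against Tnfsf11+ C1-like thymic cells, all assessed genes had a median log2 ratio of -0.33, and 20.6% were at least 2-fold lower and 5.5% higher. Of 6 assessed E protein-activated genes 4 were at least 2-fold lower, Notch1, Gfi1, Dntt and Cdk6, and none higher, with a median of -1.64. In the S1pr1+ Cd200+ cluster against the same cells, 1 of 7, Dntt, was lower and none higher, with a median of -0.08 beside 0.00 over all genes, of which 4.48% were lower. In C6-like thymic cells, 3 of 6 were lower, Gfi1, Dntt and Cdk6, and Socs3 was higher, with a median of -0.79 beside -0.21, and 20.3% of genes lower. Of 5 assessed TCR signal genes in the C3-like cells, Egr1, Egr2 and Nr4a1 were lower and Cd5, whose surface level follows TCR signal strength, was higher, with a median of -2.31. Of the 5 assessed cofactor genes Ldb1, Cbfa2t2 and Cbfa2t3 were lower and Bhlhe40 higher. Zbtb16 and Bhlhe40 were the 2 of 3 assessed effector regulators that were higher, and Tcf7 and Bcl11b the 2 of 4 progenitor regulators that were lower.

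In C4-like against C3-like hepatic cells, where all assessed genes had a median log2 ratio of 0.22 and 6.97% were higher and 2.36% lower, 4 of 6 effector regulators were higher, Tbx21, Prdm1, Zbtb16 and Bhlhe40, and Eomes was lower, with a median of 1.07. Tcf7 and Lef1 of the 4 progenitor regulators were lower, with a median of -1.10. In C3-like cells of the liver against those of the thymus, Notch1, Cxcr4 and Socs3 were the 3 higher of 5 assessed E protein-activated genes, and Egr1 and Nr4a1 the 2 higher of 4 assessed TCR signal genes, with medians of 1.5 and 1.05 beside -0.07 over all genes, of which 5.14% were higher. Zbtb16 was the 1 of 5 assessed effector regulators past 2-fold there, and it was lower in the liver, where 4.01% of genes were. In C6-like cells, Egr1, Nr4a1 and Cd69 were the 3 higher of 3 assessed TCR signal genes and Cxcr4 the 1 higher of 5 E protein-activated genes, with medians of 1.65 and 0.01 beside -0.02 and 6.36% higher. Id3 was higher in the liver in C3-like cells, and its ratio in C6-like cells was 0.702 (0.391 to 1.34).

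Across the 16 combinations of class and organ, Id2 and Tcf12 had a Pearson correlation of -0.80 on log2(CPM + 10), Id2 and Tcf3 -0.72, and Id2 and Tcf4 -0.72. Id2 and Id3 had -0.34, Id3 and Tcf4 0.71, and Tcf3 and Tcf12 0.80. The combinations share 2 libraries and a clustering, so these are descriptions. The genes most like Id2 were B2m, Tmsb4x, Lrrfip1, Adgre5 and Bhlhe40, at 0.95 each. Those most like Id3 were Mpp1 with 0.89, Marcks with 0.86, Trib1 with 0.85, and H3f3a and Pip4k2a with 0.84, of which 4, all but H3f3a, were highest in the C8-like cells, as Id3 was. For Tcf12 they were Hdac7, Rhoh and Traf4 with 0.94, 0.93 and 0.93, for Tcf3 Eif4b, Hmgn1 and Tmem108 with 0.95, 0.93 and 0.92, and for Tcf4 Gsn, Tspan13 and Dcun1d1 with 0.92, 0.90 and 0.89.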

How the data were processed

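The authors deposited raw counts of UMIs for every gene in every cell barcode of 1 hepatic and 1 thymic library, prepared with a droplet 3′ kit. Cell Ranger, Seurat 3.0 and the build mm10 are named in the submitters' processing notes. The study analysed fewer cells than the stated limits left here, for reasons not given in the sources used here. The members and all gene lists were chosen with earlier results of these data known, and the limits for naming clusters were set after the clusters had been seen.

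Cells with 800 to 4000 genes and at most 6% mitochondrial UMIs were kept, 12426 in all. The 2 libraries were clustered as 1 set with R 4.3.3 and Seurat 5.3.0 (LogNormalize, 2000 variable genes, 30 principal components, resolution 0.6). The 44 genes of the members and pathway lists were not used for clustering, so 1975 variable genes remained, and 12 clusters resulted. A cluster took a class name from the marker list with the highest mean log2 ratio. Scrublet (scanpy 1.11.5, expected share 5%) marked 2 thymic and 4 hepatic cells, so it had not worked, and doublets were kept. Of the deposited thymic matrix, 2 stray lines were left out.

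Levels are CPM of UMIs summed per class and library, for classes with at least 20 cells. Intervals are exact Poisson for levels, exact binomial for shares and exact conditional binomial for ratios, all at 95%. A gene was assessed for size with at least 50 UMIs over both groups and called at 2-fold, with no p-value, since 1 library per organ gives no replicate. Fold bounds against a count of 0 used 3 counts over the group. Cells were thinned to 1500 UMIs (seed 11). Named were the 5 members, the listed genes and the genes most correlated with a member, the 5 highest for Id2 and Id3 and the 3 highest for the others, among genes with at least 50 CPM in a class of at least 50 cells. Sequences came from GENCODE and gene positions from RefSeq, both on GRCm38. Scripts were tested on simulated data, with numpy 2.4.6, scipy 1.17.1 and pandas 2.3.3 under Python 3.11.15. Plots were drawn with matplotlib 3.10.9.

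Each alternative changed 1 choice, namely 20 principal components, resolution 0.4 or 0.8, all variable genes used, at least 500 genes, at most 10% mitochondrial or at most 50% ribosomal protein UMIs, removal of the highest Scrublet scores, separate clustering of each library, the mean of single-cell CPM, totals without mitochondrial and ribosomal protein UMIs, and other thinning. Leaving out cells with shared barcodes, hemoglobin UMIs or macrophage marker UMIs was chosen after seeing the data.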

Additional observations from a re-analysis of the deposited data

Results flagged for a closer look

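The difference of Tcf4 between C6-like and C3-like cells had opposite signs in the 2 organs as counted, and in the thymus it rests on few UMIs. In the thymus, C6-like cells had 5 and C3-like cells 0 UMIs, and the 95% interval of the ratio of C6-like to C3-like cells begins at 1.10. In the liver, C6-like cells had 3 and C3-like cells 28 UMIs, a ratio of 0.146 (0.0284 to 0.473). The difference between the organs was not tested, since each organ gave 1 library. For Id2 the same ratio was above 1 in both organs, 1.22 (1.01 to 1.47) for thymic cells and 1.35 (1.27 to 1.44) for hepatic ones. Without cells that held a hemoglobin UMI, Tcf4 in the thymic C6-like cells was 4.79 CPM, against 10.2 CPM with them. That is under the 5.12 CPM that a count of 0 allows in the C3-like thymic cells, so the opposite sign no longer holds without them. After thinning to 1500 UMIs, 0 of 166 thymic C6-like cells held a Tcf4 UMI, with an upper bound of 2.20%.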

How the results depend on the processing

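Of 2098 values recomputed under an alternative, 1946 stayed within the reported interval, 152 moved beyond it and 0 were counted as reversed. Only log2 ratios of at least 2-fold could be counted as reversed, so levels, shares and quotients could not be. Ratios of all hepatic to all thymic cells cannot change when only the clustering does, and these also count among the values that stayed. By more than 1.5-fold moved 53, of which 35 came from leaving mitochondrial and ribosomal protein UMIs out of the total. That total changes every CPM of a class by 1 factor, so shares and quotients within a class are not affected. It gave 665 CPM of summed E protein UMIs in Tnfsf11+ C1-like cells (reported 427), 1809 CPM of Id2 in C4-like cells (reported 1286) and an Id2 log2 ratio of 2.80 between the organs (reported 2.95). At resolution 0.4, where 970 of 973 Tox2+ C1-like cells joined the Tnfsf11+ C1-like cells, the summed E protein level of that cluster was 386 CPM and its Id2 share 33.4% (reported 45.3%). Id2 in C4-like cells was 1314 CPM with up to 10% mitochondrial UMIs, 1322 CPM with the highest Scrublet scores removed and 1258 CPM with each library clustered alone. The C4-like Id2 share was 98.9% (reported 98.6%) with the Scrublet scores removed. Among C4-like cells with an Id UMI, Id2 alone was held by 97.5% with up to 10% mitochondrial UMIs, 97.7% with the Scrublet scores removed, 95.7% without thinning and 97.7% after thinning to 1000 UMIs (reported 96.8%). For these the cause was not tested.

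No paired analysis was possible because each organ gave 1 library. Counting intervals do not hold the spread between mice, so an organ difference and a library difference cannot be told apart. Doublets were not removed, and clusters were rebuilt, so a difference from the study cannot be told apart from one made by the new names. The precision is low where few UMIs were counted, as for Tcf4 in the liver and for Id3 and Tcf4 in thymic C3-like and C6-like cells.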
